A study of Mus musculus with 32 samples.

Results

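The genes described here are 7 of the 27179 genes in a table of RNA polymerase II (Pol II) occupancy, chosen by symbol: the enzymes Hmgcs1, Idi1, Fdps, Sqle and Lss, the transcription factor gene Srebf2 and its regulator Insig1. They are called the sterol synthesis genes and their regulators, and none of the 7 encodes a lipoprotein receptor. All 7 passed the filter on low values that 26758 genes passed. The series compared Pol II chromatin immunoprecipitation sequencing (ChIP-seq) between 2 ways of keeping mouse tissue, over liver, kidney, heart and brain. FFPE organs were fixed in 10% formalin and embedded in paraffin, then freed of paraffin and heated in extraction buffer. Frozen organs were flash frozen, and tissue cores were crosslinked with 1% formaldehyde for 30 min. Both kinds of chromatin were sheared by ultrasound and precipitated with an antibody to the C-terminal domain of Pol II, so preservation and extraction differed together. The labels name no strain, age, genotype or drug, and they give 2 Pol II libraries for each organ and preservation. The table has 1 column for each organ and preservation, 8 in all, called profiles here. The sources used here do not say whether a profile is a single library or a pool. No profile is known to come from a separate animal, and p-values therefore reflect only how these profiles vary, which may be technical.

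Cholesterol is built from acetyl-CoA through mevalonate, isoprenoid diphosphates and squalene, which is oxidised and closed into lanosterol, the first sterol. The genes of this route are classical targets of SREBP-2, the product of Srebf2, which sits in the membrane of the endoplasmic reticulum as a precursor. When sterols are scarce SCAP carries the precursor to the Golgi apparatus, where it is cut and released to the nucleus, and when sterols are plentiful INSIG proteins hold SCAP and SREBP back. Liver is known as a main site of cholesterol synthesis and the site of bile acid synthesis, and brain makes its own cholesterol behind the blood-brain barrier.

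Reads precipitated with Pol II, together with a background that was not subtracted here, were counted per gene, and promoters are where SREBP-2 is known to act. RefSeq promoters of build GRCm38.p6 (the build named mm10), from 250 bases before to 50 bases after the start, were matched for 5 of the 7 genes. Sqle and Fdps had no entry. The 4 shown are the Hmgcs1, Srebf2, Idi1 and Insig1 promoters. Hmgcs1 and Srebf2 held the 8-base sterol regulatory element searched for, and Idi1 and Insig1 did not. Lss, which is not shown, did not hold it either. Idi1 and Insig1 are among the genes called in liver below, and a link of the element to those calls was not tested. Capitals mark TCACNCCA, the form of the sterol regulatory element searched, and CCAAT, the box of nuclear factor Y. All the CCAAT matches read ATTGG because they lie on the other strand.
Hmgcs1, chr13:119690101-119690400, plus strand: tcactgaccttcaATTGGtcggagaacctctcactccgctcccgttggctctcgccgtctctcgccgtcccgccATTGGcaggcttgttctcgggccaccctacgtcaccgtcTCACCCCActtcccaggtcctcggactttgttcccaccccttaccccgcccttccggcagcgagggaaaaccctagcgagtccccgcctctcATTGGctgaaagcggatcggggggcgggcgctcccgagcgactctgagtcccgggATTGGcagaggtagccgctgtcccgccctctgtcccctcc
Srebf2, chr15:82147019-82147318, plus strand: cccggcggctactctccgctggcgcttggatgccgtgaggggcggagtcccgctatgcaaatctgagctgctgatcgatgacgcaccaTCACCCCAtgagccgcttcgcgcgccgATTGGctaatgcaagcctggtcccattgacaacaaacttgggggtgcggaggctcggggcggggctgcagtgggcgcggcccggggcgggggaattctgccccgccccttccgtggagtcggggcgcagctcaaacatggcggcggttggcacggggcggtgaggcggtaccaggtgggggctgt
Idi1, chr13:8885356-8885655, plus strand: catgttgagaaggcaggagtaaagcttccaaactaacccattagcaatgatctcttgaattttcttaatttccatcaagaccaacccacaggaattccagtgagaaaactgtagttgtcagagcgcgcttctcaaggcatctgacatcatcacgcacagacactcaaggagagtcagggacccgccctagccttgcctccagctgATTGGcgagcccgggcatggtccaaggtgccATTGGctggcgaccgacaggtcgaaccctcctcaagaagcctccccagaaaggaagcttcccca
Insig1, chr5:28071162-28071461, plus strand: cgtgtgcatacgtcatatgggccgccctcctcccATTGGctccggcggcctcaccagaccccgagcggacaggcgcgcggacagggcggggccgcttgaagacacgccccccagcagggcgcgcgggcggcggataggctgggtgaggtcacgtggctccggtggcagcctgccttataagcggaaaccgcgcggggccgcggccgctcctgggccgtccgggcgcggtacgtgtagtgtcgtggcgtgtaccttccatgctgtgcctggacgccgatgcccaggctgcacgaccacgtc
The sterol regulatory element was searched on both strands and was found as TCACCCCA at position -137 from the Hmgcs1 start and at -162 from the Srebf2 start. Of 32851 promoters of the same length, 4.36% held a match. A CCAAT box stood in 5 of the 5 promoters, 4 times in Hmgcs1, 2 times in Idi1 and 1 time in each other, against 37.4% of all promoters. The GC box GGGCGG also stood in all 5, with 3 matches in Hmgcs1, 1 in Idi1, 2 in Lss, 5 in Srebf2 and 3 in Insig1, against 35.7% of all promoters. The E-box CACGTG stood in Insig1 alone among the 5, at position -101, against 7.15% of all promoters. The 4 motifs do not overlap in these letters, and a match describes the sequence only.

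The profiles held between 864816 reads in genes (FFPE liver) and 2178329 (frozen liver), with FFPE heart next lowest at 923888. The median gene had 16 to 39 reads. Mitochondrial genes took 7.73% to 25.6% of reads, with the highest share in FFPE heart and 19.2% in FFPE kidney. Defining markers of neurons, cardiomyocytes, proximal tubule and hepatocytes had their highest summed levels in brain, heart, kidney and liver in that order. The 10 hepatocyte markers, all called higher in liver, summed to 2618 RPM (reads scaled to the profile's total) in FFPE liver and 12129 in frozen liver, against 143 to 250 in the other organs. The 10 cardiomyocyte markers, all called higher in heart, summed to 3663 RPM in FFPE heart and 7563 in frozen heart, against 262 to 534 elsewhere. Proximal tubule markers (7 of 10 called higher in kidney) summed to 1276 in FFPE kidney and 1671 in frozen kidney, against 283 to 360. Neuron markers (10 of 10 called higher in brain) summed to 907 in FFPE brain and 935 in frozen brain, against 154 to 277. Every hepatocyte, cardiomyocyte and neuron marker had reads in every profile, and the only tubule marker at 0 reads was Miox, in FFPE liver. Of other cell types, endothelial markers summed to 687 RPM in FFPE heart and 853 in frozen heart, against 169 to 411 elsewhere, and adipocyte markers to 210 and 231, against 116 to 151. Adrenal cortex markers summed to 128 RPM in FFPE kidney and 98.1 in frozen kidney, against 84.3 to 101 elsewhere. Their part in the heart and kidney differences below was not tested.

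Values below are the deposited log2 values, that is log2 RPM with 0.5 reads added to each count. Levels are compared between profiles of 1 gene and not between genes, since the counted length of each gene is not given here. The question of the organ comparison was which of the 7 genes carried more or less Pol II in 1 organ than in the other 3. Organ differences are log2 differences of the organ's 2 profiles from the 6 others with their standard error (SE), from limma with organ and preservation as terms. A gene is called at a Benjamini-Hochberg adjusted p under 0.05 over all 26758 genes. In whole tissue, fewer cells of a type and less Pol II on the gene in each cell cannot be told apart.

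Pol II on 4 of the 7 genes, Insig1, Fdps, Idi1 and Sqle, rose in liver over the other organs, where 4.52% of all genes were called higher. The median difference of the 7 in liver was 0.87, against -0.023 over all genes tested, and 6 of the 7 lay above 0. In heart Hmgcs1, Idi1 and Fdps fell below the other organs, where 2.18% of all genes were called lower. All 7 differences in heart were below 0, with a median of -0.70 against -0.0027 over all genes. In kidney 1 gene of the 7, Hmgcs1, rose over the other organs, where 0.919% of all genes were called higher. In brain none of the 7 was called by limma, where 7.46% of all genes were called (3.43% higher, 4.02% lower). An unadjusted p under 0.05 was reached there by 2 of the 7, and by 4886 of all 26758 genes. Asked whether the 4 organs differed at all, the moderated F-test of limma called Hmgcs1, Insig1, Fdps and Idi1, where 13.9% of all genes were called. With 1 profile left out at a time, which leaves 1 profile of an organ, limma called fewer of the 7 in liver each time. In heart and kidney none was called in some of these fits, and in brain some were called with either liver profile left out. The number of all genes called moved as well. In brain, heart and kidney it fell without a profile of the organ itself and rose with either liver profile left out. In liver it fell with each profile left out except FFPE liver, where it rose while fewer of the 7 were called. Liver calls lost in that fit therefore did not follow the number of all genes. The other calls lost or gained in this way are not read as particular to these genes.

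**Figure D1:**
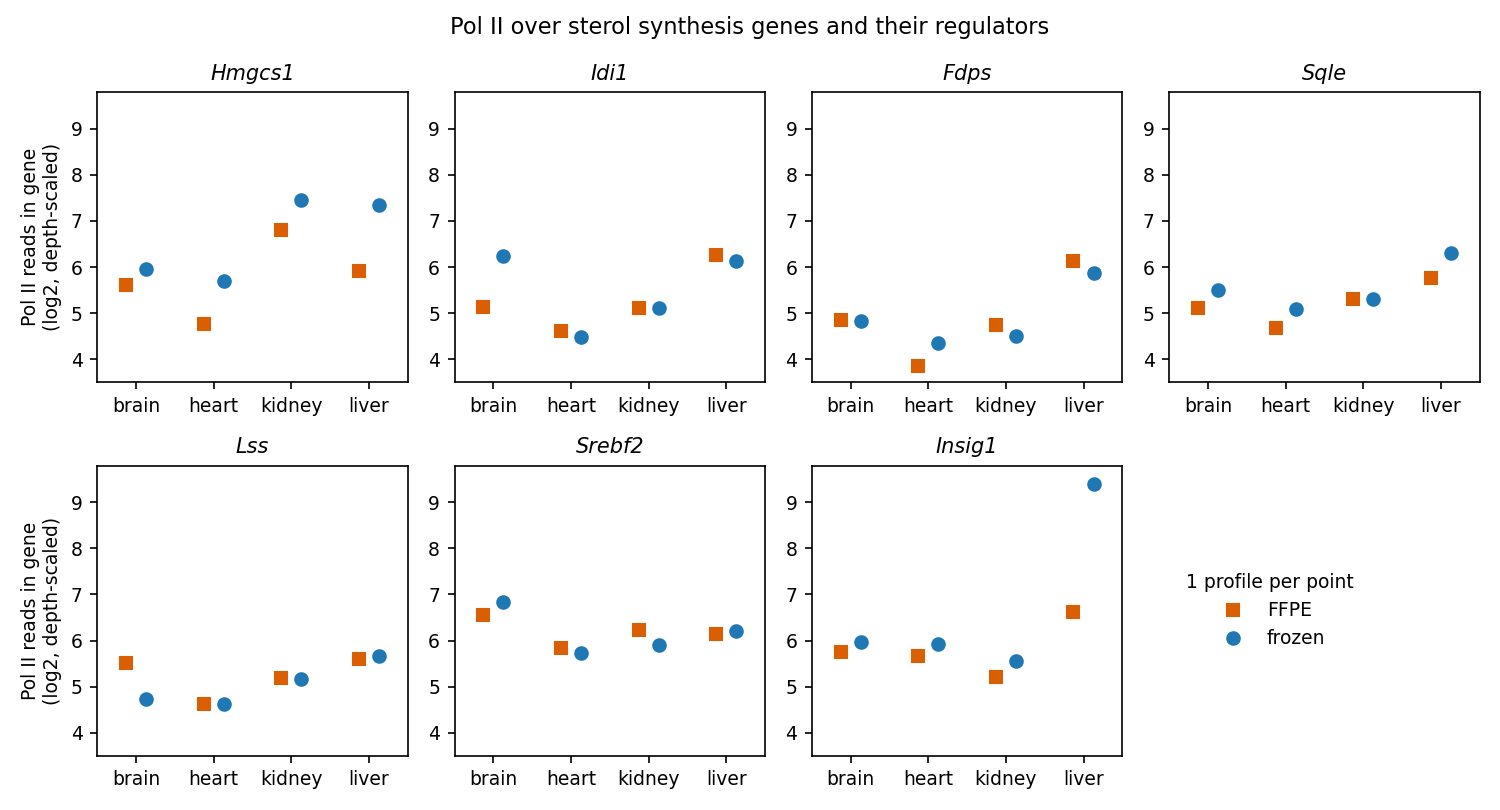
Log2 Pol II values of each of the 7 genes in the 8 profiles, by organ, with FFPE left of frozen. Each point is 1 profile with no error bar of its own. Insig1 at 9.40 in frozen liver stands far above its other values, and Hmgcs1 is highest in frozen kidney at 7.46. The heart values of Idi1, Fdps, Sqle, Lss and Srebf2 are below those of the other organs.

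Hmgcs1 (chromosome 13, 119690351 to 119708260) encodes the cytosolic synthase that joins acetyl-CoA to acetoacetyl-CoA at the entry of the mevalonate route. Its values were 6.79 in FFPE kidney and 7.46 in frozen kidney, against 5.62 and 5.95 in FFPE and frozen brain, 4.75 and 5.70 in FFPE and frozen heart, and 5.92 and 7.36 in FFPE and frozen liver. Reads behind them ranged from 21 in FFPE heart to 337 in frozen kidney. Within each preservation kidney was the highest organ and heart the lowest, but frozen liver was above FFPE kidney, so the groups overlapped over all 8 profiles. The kidney difference was 1.24 ± 0.24 (SE, 2 profiles against 6; limma adjusted p = 0.0072), and it was 1.36 among FFPE profiles and 1.12 among frozen profiles. The heart difference was -1.29 ± 0.24 (limma adjusted p = 0.0021), with -1.36 among FFPE and -1.22 among frozen profiles. Each of the 2 calls was lost by limma when either profile of its own organ was left out, which leaves 1 profile of that organ. Far fewer of all genes were called in those fits too. The kidney difference was then 1.12 without FFPE kidney and 1.36 without frozen kidney. The heart difference was -1.22 without FFPE heart and -1.36 without frozen heart. The liver difference of 0.59 ± 0.24 was not called (limma adjusted p = 0.17), nor was the brain difference of -0.55 ± 0.24 (0.23). Without FFPE liver both were called, at 0.98 in liver and -0.68 in brain, and more of all genes were called in each organ. In the order kidney, liver, brain, heart no neighbouring organs differed by the test, and the nearest was liver over brain by 0.85 ± 0.30 (limma adjusted p = 0.081).

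The nearest gene to Hmgcs1 is the kinase gene Nim1k, 1833 bases beyond its end. Nim1k also fell by 1.06 in heart (limma adjusted p = 0.012), and its kidney difference was 0.42 and not called. Whether reads at one of the 2 genes come from Pol II on the other was not tested.

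Idi1 (chromosome 13, 8885606 to 8892396) encodes the isomerase that interconverts the isoprenoid diphosphate building blocks. Its values were 6.26 in FFPE liver and 6.14 in frozen liver, against 5.14 and 6.23 in FFPE and frozen brain, 4.61 and 4.49 in FFPE and frozen heart, and 5.10 and 5.12 in FFPE and frozen kidney. The heart profiles were the lowest 2 of the 8. The liver profiles were not the highest 2, since frozen brain lay between them. Idi1 rose in liver by 1.09 ± 0.29 (limma adjusted p = 0.020) and fell by 1.11 ± 0.29 in heart (limma adjusted p = 0.024). The liver call was lost by limma without FFPE liver (0.86, adjusted p = 0.17), without FFPE brain (0.097), without frozen kidney (0.063) and without frozen heart (0.065). The heart call was lost by limma without FFPE heart (-1.34), frozen heart (-0.89), frozen brain (-0.92) or FFPE kidney (-1.07). In each of these fits fewer of all genes were called in heart as well. The order was liver, brain, kidney, heart, with steps of 0.52, 0.57 and 0.56, none of them called.

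Fdps (chromosome 3, 89093588 to 89101967) encodes the synthase of farnesyl diphosphate, from which sterols, dolichol and the farnesyl group on proteins are made. Its values were 6.13 in FFPE liver and 5.88 in frozen liver, against 4.85 and 4.82 in FFPE and frozen brain, 3.85 and 4.35 in FFPE and frozen heart, and 4.73 and 4.50 in FFPE and frozen kidney. The liver profiles were the highest 2 and the heart profiles the lowest 2, with no overlap. Fdps had the fewest reads of the 7 genes, from 11 in FFPE heart to 110 in frozen liver. It rose in liver by 1.49 ± 0.31 (limma adjusted p = 0.0029), by 1.66 among FFPE and 1.32 among frozen profiles. This call held under each of the 16 alternatives run, with limma adjusted p between 0.00038 and 0.044. It fell by 1.05 ± 0.31 in heart (limma adjusted p = 0.048), a call lost in 10 of the 16 alternatives, among them each omission of 1 profile other than frozen liver. The step from liver to brain in its order was 1.17 ± 0.38 and narrowly missed the threshold (limma adjusted p = 0.053). The gene Rusc1 ends 224 bases from Fdps and its liver difference was 0.081.

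Sqle (chromosome 15, 59315092 to 59331193) encodes squalene epoxidase, which adds oxygen to squalene and is known as a rate-limiting step of the later route. Its values were 5.76 in FFPE liver and 6.31 in frozen liver, against 5.12 and 5.49 in FFPE and frozen brain, 4.69 and 5.08 in FFPE and frozen heart, and 5.30 in each kidney profile. Both liver profiles were above the other 6, and both heart profiles below the other 6. Sqle rose in liver by 0.87 ± 0.27 (limma adjusted p = 0.044), the weakest of the 4 liver calls. It was lost in 11 of the 16 alternatives, among them every omission of 1 profile (adjusted p between 0.052 without FFPE kidney and 0.37 without frozen liver, by limma). Its heart difference was -0.66 ± 0.27 and was not called (limma adjusted p = 0.17). The gene Washc5, 669 bases away, had a liver difference of -0.15.

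Lss (chromosome 10, 76531565 to 76557139) encodes lanosterol synthase, which closes the ring system. Its values were 5.61 in FFPE liver and 5.67 in frozen liver, against 5.51 and 4.73 in FFPE and frozen brain, 4.61 in each heart profile, and 5.19 and 5.16 in FFPE and frozen kidney. The liver profiles were highest and the heart profiles lowest, as for Fdps and Sqle, but the distances were smaller. The liver difference was 0.67 ± 0.29 (limma adjusted p = 0.19) and the heart difference -0.70 ± 0.29 (limma adjusted p = 0.19), and neither was called. Lss spanned the narrowest range of the 7 genes, 1.05 between its lowest and highest profile. The noncoding RNA gene 4930483K19Rik overlaps 11269 bases of Lss and had 5 to 18 reads per profile, against 19 to 95 for Lss. Reads of sheared DNA in the overlap cannot be assigned to either gene.

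Srebf2 (chromosome 15, 82147269 to 82205379) encodes the precursor of SREBP-2. Its values were 6.56 in FFPE brain and 6.83 in frozen brain, against 5.84 and 5.72 in FFPE and frozen heart, 6.24 and 5.91 in FFPE and frozen kidney, and 6.13 and 6.20 in FFPE and frozen liver. Both brain profiles were above the other 6, and both heart profiles below the other 6. The heart difference of -0.54 ± 0.23 was not called (limma adjusted p = 0.21). The brain difference was 0.69 ± 0.23 and missed the threshold (limma adjusted p = 0.077). It passed under 5 of the 16 alternatives, among them the omission of either liver profile, with limma adjusted p over all alternatives between 0.023 and 0.83. In liver, where 4 of the 7 genes rose, the Srebf2 difference was -0.013 ± 0.23 (limma adjusted p = 0.99), with a sign that turned in 7 of the 16 alternatives and a range of -0.13 to 0.054. No step in its order of brain, liver, kidney and heart was called. The microRNA gene Mir33, which lies in Srebf2 and is known to restrain cholesterol export, had 0 to 3 reads in every profile, too few to describe.

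Insig1 (chromosome 5, 28071412 to 28078662) encodes an anchor that holds SCAP and SREBP in the endoplasmic reticulum, and it is itself a target of SREBP-2. Its values were 6.62 in FFPE liver and 9.40 in frozen liver, against 5.74 and 5.96 in FFPE and frozen brain, 5.67 and 5.92 in FFPE and frozen heart, and 5.22 and 5.56 in FFPE and frozen kidney. Both liver profiles were above all others, and the 6 others lay between 5.22 and 5.96. Frozen liver held 1267 of the 1856 Insig1 reads of the table. Insig1 rose in liver by 2.33 ± 0.35 (limma adjusted p = 0.0001), the largest liver difference of the 7 genes, by 1.07 among FFPE profiles and 3.58 among frozen profiles. Without frozen liver the difference was 1.07 (limma adjusted p = 0.049), and without FFPE liver it was 3.58 (1.6e-11). The step from liver to brain, 2.16 ± 0.42 (limma adjusted p = 0.0015), was the 1 called of the 21 neighbouring steps over the 7 genes. Of all genes, 9.32% were called between brain and liver, 7.07% between heart and liver, 6.65% between brain and heart, 3.78% between brain and kidney, 3.76% between kidney and liver and 2.67% between heart and kidney. Without frozen liver, or without frozen brain, no step of the 7 genes was called. The kidney difference was -1.16 ± 0.35 with both kidney profiles below the other 6, and it was not called (limma adjusted p = 0.11). Without FFPE liver the kidney, heart and brain differences of Insig1 were each called, at -1.58, -1.04 and -0.96. More of all genes were called in each of these organs in that fit. Insig1 lies inside the long noncoding RNA gene Gm35223 (28005942 to 28123915), which was not analysed here.

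**Figure D2:**
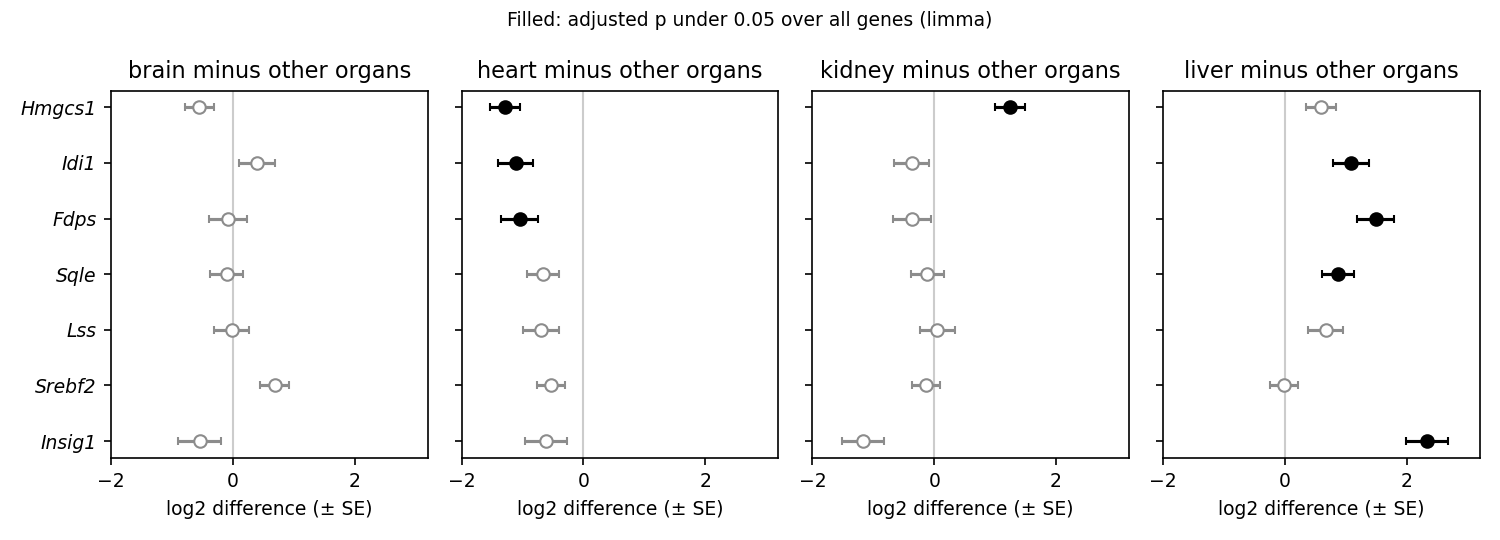
Log2 difference of each organ from the other 3 organs for the 7 genes, with bars of 1 SE from limma and filled points for genes called at an adjusted p under 0.05. Liver differences run from -0.013 (Srebf2) to 2.33 (Insig1) and heart differences from -1.29 (Hmgcs1) to -0.54 (Srebf2).

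The second comparison asked what preservation did to these genes within an organ. By limma none of the 7 was called between FFPE and frozen profiles with organ as a block (4 against 4), where 0.576% of all genes were called. Hmgcs1 and Insig1 had an unadjusted limma p under 0.05 (0.0006 and 0.0063), and over all 26758 genes 2494 did. The median difference of the 7 was -0.22, against -0.012 over all genes.

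Hmgcs1 was lower in FFPE than in frozen tissue in 4 of 4 organs, with differences of -1.43 for liver, -0.95 for heart, -0.67 for kidney and -0.34 for brain. The 95% counting intervals, exact binomial intervals that cover counting error only, left out 0 for liver, heart and kidney. The fitted difference was -0.85 ± 0.21 (SE; limma adjusted p = 0.075). With voom precision weights it was -0.82 (limma adjusted p = 0.049).

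Insig1 was also lower in FFPE tissue in 4 of 4 organs, with differences of -2.78 for liver, -0.34 for kidney, -0.26 for heart and -0.22 for brain. The liver difference rested on 91 reads in FFPE liver and 1267 in frozen liver, with a counting interval of -3.11 to -2.48, and the intervals of the other 3 organs held 0. The fitted difference was -0.90 ± 0.30 (limma adjusted p = 0.25). Without either liver profile it was -0.27, and with voom weights -1.28 (limma adjusted p = 0.020). Liver against the 3 other organs gave a difference of the preservation effect of -2.51 ± 0.59 for Insig1, with an unadjusted p of 0.0083 and a limma adjusted p of 0.50. Of all genes 0.0% were called in that test in each of the 4 organs, and 2264 had an unadjusted p under 0.05 in liver. In the same pair of liver profiles the summed hepatocyte markers stood at 2618 in FFPE liver against 12129 in frozen liver. Their part in the Insig1 difference was not tested.

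The other 5 genes had fitted FFPE differences between -0.33 (Sqle) and 0.19 (Lss), and within organs their counting intervals left out 0 in 3 of 20 cases. Idi1 was at 5.14 in FFPE brain against 6.23 in frozen brain, a difference of -1.09 with a counting interval of -1.53 to -0.68. Lss was at 5.51 in FFPE brain against 4.73 in frozen brain, a difference of 0.78 with an interval of 0.27 to 1.31. Sqle in liver differed by -0.56, with an interval of -1.06 to -0.09. Fdps had 0 inside its interval in each organ, and its fitted difference was 0.0033 ± 0.27.

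**Figure D3:**
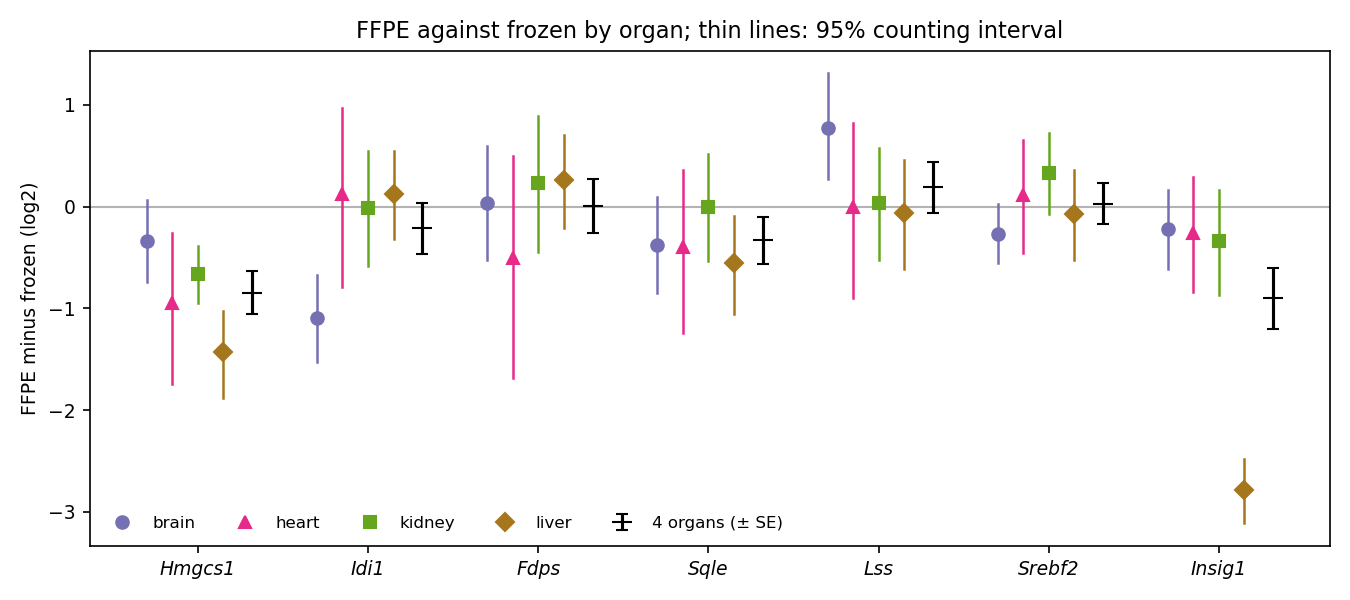
FFPE minus frozen log2 difference of each of the 7 genes in each organ, with 95% counting intervals on the recovered reads as thin lines and the fitted difference over the 4 organs with its SE in black. Hmgcs1 is below 0 in all 4 organs, and the Insig1 point of liver, at -2.78, is far from its other 3.

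The rest of the pathway was read from 5 lists of genes outside the 7, chosen with results of these data known. Of 15 other enzymes of sterol synthesis, 2 were called higher in liver and none lower, beside the 4.52% of all genes called higher, and 14 of the 15 differences were above 0 with a median of 0.52. The 2 were Sc5d, the sterol C5 desaturase (1.34 ± 0.35, limma adjusted p = 0.016), and Msmo1, a methyl sterol oxidase (1.31 ± 0.33, 0.015). Cyp51, the lanosterol demethylase, had a liver difference of 0.41 ± 0.22 and Lbr, a sterol reductase of the nuclear envelope, one of -0.19 ± 0.27, and neither was called. In heart 14 of the 15 differences were below 0 with a median of -0.38. None was called by limma, where 2.18% of all genes were called lower. An unadjusted p under 0.05 was reached by 4 of the 15, and by 4830 of all 26758 genes. Both liver calls were lost without frozen kidney or frozen liver, fits in which fewer of all genes were called in liver. Without FFPE liver more of the list were called in liver, as over all genes. In heart some were called with either liver profile left out, where more of all genes were called too. The call of Msmo1 was also lost without FFPE liver and that of Sc5d without frozen brain, and the Sc5d difference ran from 0.56 to 2.12.

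Of 12 genes that sense sterols or process SREBP, 2 rose in liver, where 4.52% of all genes did, and the list's median difference was 0.35 against -0.023 over all genes. Insig2, the second anchor of SCAP, had 6.09 in FFPE liver and 8.39 in frozen liver, against 4.75 to 5.42 in the 6 profiles of other organs. Its liver difference was 2.28 ± 0.34 (limma adjusted p = 0.00012). Syvn1, a ubiquitin ligase of the endoplasmic reticulum, rose by 1.12 ± 0.24 (limma adjusted p = 0.0042). Both calls were lost without frozen liver, a fit in which fewer of all genes were called in liver. Without FFPE liver more of the 12 were called in liver, as over all genes. Srebf1, whose products drive fatty acid synthesis, differed by 0.56 ± 0.25 in liver and was not called, and Rnf145, a ubiquitin ligase, by -0.22 ± 0.22.

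Of 13 fatty acid synthesis targets of SREBP-1, 4 rose and 1 fell in liver, beside 4.52% of all genes called higher and 3.39% called lower. Fasn, the fatty acid synthase, rose by 1.13 ± 0.21 (limma adjusted p = 0.0011). Scd2, the stearoyl-CoA desaturase known from brain, fell by 1.08 ± 0.23 in liver (limma adjusted p = 0.0045) and rose in brain by 1.47 ± 0.23 (0.00026). Acacb, the acetyl-CoA carboxylase of the mitochondrial surface, rose in heart, where 3.06% of all genes were called higher, by 1.26 ± 0.21 (limma adjusted p = 0.00079) and fell by 1.44 ± 0.21 in brain (0.00013). Acly and Scd1, which make cytosolic acetyl-CoA and monounsaturated fatty acids, were not called in any organ and differed in liver by 0.44 ± 0.24 and 0.26 ± 0.29. In brain 2 of the 13 were called higher and 1 lower, beside 3.43% and 4.02% of all genes. In heart 1 was called higher and 2 lower, beside 3.06% and 2.18% of all genes. With 1 profile left out these counts moved, as did the number of all genes called. Without frozen brain none was called in brain, where Acacb and Scd2 differed by -1.33 and 1.22. Without FFPE heart none was called in heart. In each of these fits far fewer of all genes were called in that organ. The heart call of Acacb was also lost without frozen heart.

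Of 14 genes of sterol export, uptake, esterification and the liver X receptors, 6 rose in liver and none fell, beside 4.52% of all genes called higher and 3.39% called lower. The list's median difference was 0.76. In brain 1 of the 14 was called higher and 3 lower, beside 3.43% and 4.02% of all genes. In heart 1 was called lower, beside 2.18% of all genes. Abcg8, a subunit of the transporter that moves sterols into bile, rose by 2.08 ± 0.30 (limma adjusted p = 8e-05), Abca1, the exporter to apolipoprotein A1, by 1.44 ± 0.21 (9.8e-05), and Lcat, which esterifies cholesterol in plasma, by 2.51 ± 0.43 (0.00047). Npc1, the lysosomal cholesterol transporter, differed by 0.75 ± 0.25 and Mylip, a ubiquitin ligase, by -0.088 ± 0.28, and neither was called. Without frozen liver the Lcat difference was 1.53 and its call was lost. That fit called fewer of this list and of all genes in liver. With 1 profile left out, the brain and heart counts of this list moved, as did the number of all genes called. The brain calls of Abca1 and Lcat were lost in some of these fits, with differences from -0.96 to -0.51 and from -2.95 to -0.49. The heart call of Abcg8 was lost in some too, with differences from -1.66 to -0.77.

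Of 8 genes of sterol catabolism, 6 rose in liver and 4 fell in heart, with median differences of 1.79 and -1.03, against -0.023 and -0.0027 over all genes. Of all genes 4.52% were called higher in liver and 2.18% lower in heart. In brain 1 of the 8 was called higher and 2 lower, beside 3.43% and 4.02% of all genes. In kidney 1 was called lower, beside 122 of all 26758 genes. Cyp7a1, the rate-limiting enzyme of bile acid synthesis, rose in liver by 3.19 ± 0.35 (limma adjusted p = 2.5e-06) and fell by 1.82 ± 0.35 in heart (0.0026). Cyp8b1, which sets the share of cholic acid, rose in liver by 3.76 ± 0.46 (limma adjusted p = 9.8e-06), and Cyp27a1, the sterol hydroxylase that opens the other bile acid pathway, by 2.13 ± 0.31 (8.4e-05). Cyp39a1 differed in liver by 0.30 ± 0.30 and Cyp46a1, a cholesterol hydroxylase known from brain, by -0.34 ± 0.39. The brain difference of Cyp46a1 was 0.17 ± 0.39, and neither gene was called. With 1 profile left out, the counts called in liver and heart were the same or lower. Without frozen heart the heart difference of Cyp7a1 was -0.77 and its call was lost. That fit called fewer of all genes in heart as well. None of the genes on the 5 lists was called between FFPE and frozen profiles by limma, where 0.576% of all genes were called. An unadjusted p under 0.05 was reached by 8 of the 62, and by 2494 of all 26758 genes, so neither count is particular to the lists.

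**Figure D4:**
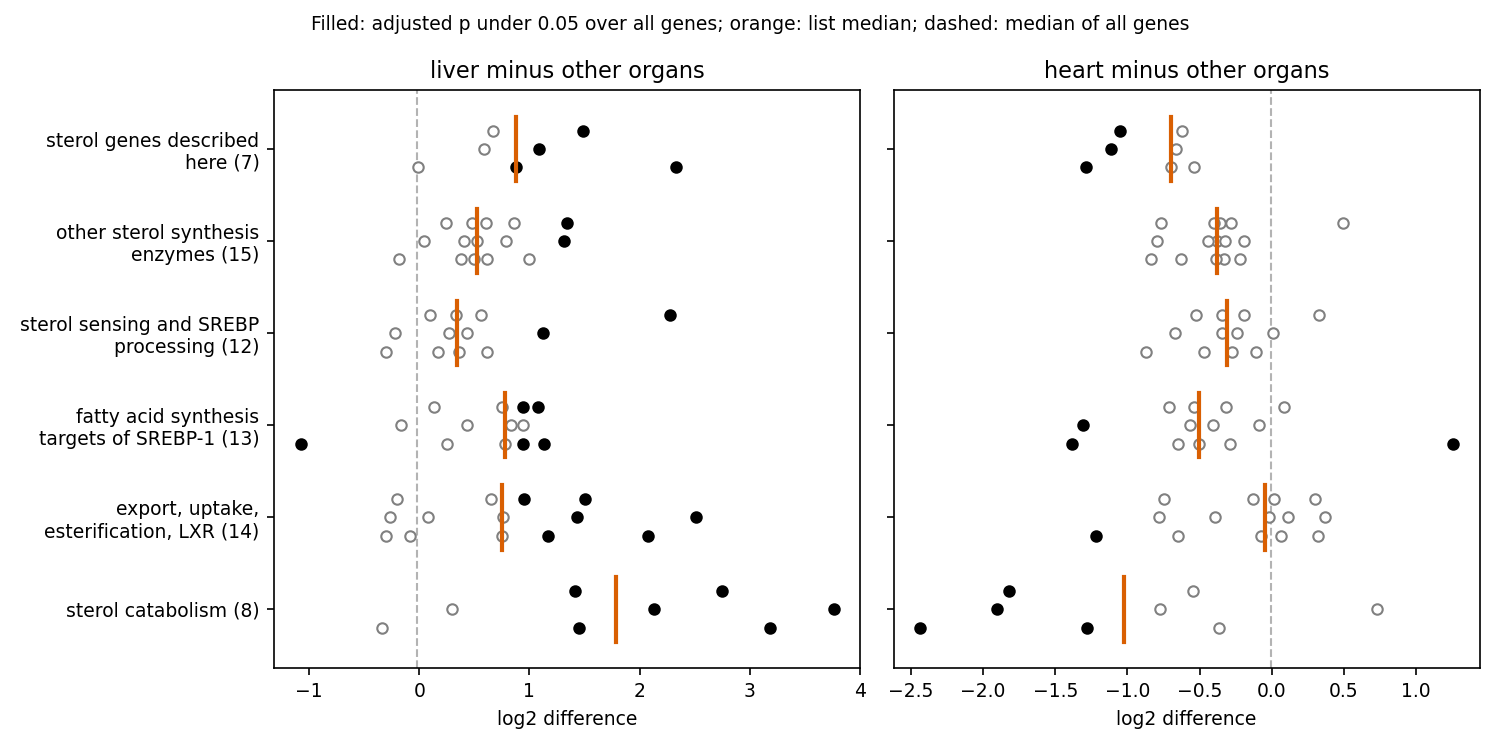
Log2 difference of liver and of heart from the other organs for each gene of the 7 and of the 5 pathway lists, with filled points for genes called by limma, the list median in orange and the median of all genes as a dashed line. The liver medians run from 0.35 for SREBP processing to 1.79 for sterol catabolism, with 0.87 for the 7 genes.

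The 7 genes did not share 1 pattern. Over the 8 profiles, Pearson's r between 2 of them ranged from 0.035 (Hmgcs1 and Srebf2) to 0.89 (Fdps and Sqle), with a median of 0.55 over 21 pairs, all above 0. Idi1 and Fdps had 0.83, and Sqle and Insig1 0.84. These values describe 8 profiles that share 4 organs and their depths. Averaged after centring each gene on its own mean, the 7 stood at 0.43 for FFPE liver and 1.08 for frozen liver, at -0.77 for FFPE heart and -0.51 for frozen heart, and between -0.13 and 0.084 in the 4 profiles of brain and kidney.

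Of the 19361 genes whose log2 values averaged 3 or more, those most like this average were Dpys (r = 0.989), Slc66a1 (0.981), Nelfa (0.980), Azgp1 (0.974) and Mst1 (0.971), over 8 profiles. Most like Insig1 were Insig2 (0.985) and Ranbp10 (0.979), and like Insig1 both were highest in frozen liver. Hmgcs1 was nearest to Klhdc7a (0.979) and Tgm1 (0.977), which like it were highest in frozen kidney. Lss was nearest to Tpte (0.963) and to Scap (0.952), the carrier of SREBP. The nearest to Sqle were Azgp1 and Cdo1 (0.978 each), to Fdps Ccnf (0.976) and Fam214a (0.974), to Idi1 Mon1b (0.960) and Gtf2e1 (0.959), and to Srebf2 Camk4 (0.962) and Sec22c (0.960). With 8 points and so many genes searched, high values are reached by many genes, and they are given as a description.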

How the data were processed

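Pol II ChIP and input libraries of 4 mouse organs make up the series; 1 table of 8 columns (organ by preservation) was used. By its title it covers the Pol II libraries, and no input values were used. Per the submitters' processing notes, the authors used Bowtie2 with build mm10, featureCounts for counting per gene, and limma; the sources used here give no versions. The authors deposited log2 values, which have the form given by limma's voom function. Solved for reads, 100% of values were whole within a relative tolerance of 1e-06. Entrez numbers of 25275 genes (93.0%) matched RefSeq positions of GRCm38.p6.

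Using R 4.3.3, limma 3.58.1 (trended empirical Bayes, 3 residual and 19.45 prior degrees of freedom) was fitted to the deposited log2 values of the 26758 genes at a log2 of at least 0 in at least 2 profiles. Preservation effects were compared between organs by limma on the 4 differences, 1 against 3, with the lone organ assumed to vary like the others. The fits were also run on simulated reads with the same spread for every gene and no preservation effect, as a check of the code only. Because 0.5 reads are added at every depth, low values shift with depth, and strand of counting is not given.

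The 7 genes, the pathway lists, the marker lists and the tests were chosen with earlier results of these data known. Of each list, up to 3 called genes with the largest moderated t and up to 2 uncalled with the highest mean were named, and of likeness the 5 genes with the highest Pearson r to the mean of the 7 and 2 for each gene; neighbouring and overlapping genes were named for their position. Besides those in the report, the marker lists gave these counts, all by limma at an adjusted p under 0.05. Oligodendrocyte markers (8) were called higher for 3 in brain and lower for 1 each in kidney and liver. Astrocyte markers (8) were called higher for 1 and lower for 1 in each of brain, heart and liver, and their sums were no higher in brain (380 and 403 RPM for FFPE and frozen) than in heart (397 and 463). Endothelial markers (6) were called higher for 5 in heart and lower for 2 in brain and 1 in liver, adipocyte markers (8) higher for 2 in heart and 1 in liver and lower for 1 in brain, erythroid markers (5) higher for 1 in liver and lower for 1 in heart, and adrenal cortex (5) and smooth muscle (4) markers in no organ. Alternatives were other filters, added reads, scalings, weights and the omission of each profile. Some genes of the pathway are not reported here.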

Additional observations from a re-analysis of the deposited data

Results flagged for a closer look

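In 4 of the 21 groups of 4 values tested (the FFPE profiles, the frozen profiles and the FFPE minus frozen differences of each of the 7 genes), 1 value lay far from the other 3, with a gap to the nearest of them past Dixon's 95% critical value. Chance flags about 1 in 20 groups, and the groups of 1 gene share values. Insig1 in frozen profiles was at 9.40 in liver, against 5.56 to 5.96 in frozen brain, heart and kidney. The Insig1 difference of FFPE from frozen was -2.78 in liver, against -0.34 to -0.22 in the other 3 organs. For Idi1 that difference was -1.09 in brain, against -0.013 to 0.12 in the others. For Lss it was 0.78 in brain, against -0.059 to 0.031 in the others. Idi1 had 71 reads in FFPE brain and 142 in frozen brain, and Lss 92 in FFPE brain and 50 in frozen brain.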

How the results depend on the processing

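Each result was recomputed under 16 alternatives: 7 planned settings, the omission of each of the 8 profiles, and 1 scaling (to receptor genes) chosen after the data were seen. The calls of Insig1 and Fdps in liver held in all 16, while Idi1 in liver held in 12, Hmgcs1 in heart and in kidney in 13 each, Idi1 in heart in 10, Fdps in heart in 6 and Sqle in liver in 5. The cause of each change was not tested.

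The count of the 7 genes called in brain, 0 in the main analysis, was 1 (Srebf2) with quantile normalization, with mitochondrial genes and scaling factors left out, and with voom weights. Of all genes, these settings called 2393, 1949 and 2595 in brain in that order, against 1995 in the main analysis. In heart 3 became 1 (Hmgcs1) with voom weights and 0 with receptor scaling. In kidney 1 became 2 with quantile normalization, which added Insig1 (-0.97), and 0 with receptor scaling. Neighbouring steps called, 1 in the main analysis, were 2 with a mean log2 of at least 2 and 3 with voom weights. The number of all genes called between pairs of organs in these settings is not given here. For FFPE against frozen 0 became 2 with voom weights. With 1 profile left out, the counts for brain, heart, kidney, liver and neighbouring steps moved, as did the number of all genes called. The count for FFPE against frozen stayed at 0.

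Signs turned only among differences that were not called. With mitochondrial genes and scaling factors left out, the brain difference was 0.011 for Fdps and 0.067 for Lss, and with quantile normalization 0.046 for Lss. The kidney difference of Lss was -0.014 with receptor scaling. The liver difference of Srebf2 was 0.0050 with median-of-ratios size factors, 0.0021 with voom weights and 0.043 with receptor scaling. The FFPE difference of Fdps was -0.0029 with reads added in proportion to depth and -0.074 with receptor scaling, and that of Srebf2 -0.0043 with voom weights and -0.051 with receptor scaling. With 1 profile left out, brain differences ranged from -0.19 to 0.98 for Idi1, -0.19 to 0.036 for Fdps and -0.41 to 0.37 for Lss (0.021, 0.014 and 0.035 without frozen heart, kidney and liver). Kidney differences ranged from -0.33 to 0.11 for Sqle, -0.081 to 0.18 for Lss (-0.054 without frozen kidney, -0.0045 without FFPE liver) and -0.34 to 0.062 for Srebf2, and liver differences from -0.079 to 0.054 for Srebf2 (0.053 without frozen brain, 0.0075 without FFPE heart, 0.052 without FFPE liver). FFPE differences ranged from -0.33 to 0.077 for Idi1, -0.081 to 0.17 for Fdps (-0.0062 without brain, -0.072 without kidney), -0.0095 to 0.27 for Lss and -0.073 to 0.12 for Srebf2 (-0.0038 without heart).

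Receptor scaling moved the median of all genes to -0.22 in brain and 0.23 in heart, and leaving out mitochondrial genes moved it to -0.14 in liver and 0.11 for FFPE against frozen. Over all genes, voom weights called 1069 higher and 220 lower in heart, against 819 and 582 in the main analysis, 1732 and 652 in liver, against 1210 and 907, and 1468 and 1127 in brain, against 918 and 1077. Kidney had 627 calls with voom weights and 687 with quantile normalization, against 368, and FFPE against frozen had 309 with voom weights, against 154. Receptor scaling gave 467 higher and 1288 lower in brain, 975 and 267 in heart and 987 and 454 in liver. Mitochondrial genes and scaling factors left out gave 1057 and 1248 in liver.

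The test of the FFPE effect between organs was not run with voom weights and a planned quasi-likelihood test on the recovered reads was not run. No paired analysis was possible because the columns carry no replicate number, beyond the pairing of FFPE and frozen profiles by organ that the main fit already holds. The fewest reads behind a value of the 7 genes were the 11 of Fdps in FFPE heart.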
